A study of Sus scrofa with 6 samples.

Results

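The genes described here encode the ubiquitin-specific proteases (USPs), the largest family of deubiquitinases, together with the circular RNAs (circRNAs) made from them in pig brain. A gene was a member when its Ensembl identifier carried a pig symbol made of USP, a number and an optional letter, and a circRNA was a member when it lay inside the Sscrofa11.1 RefSeq bounds of such a gene. The rule found 46 of the 21280 genes in the deposited gene table and 128 of the 11375 circRNAs, and 23 of the 46 genes hosted at least 1 circRNA. USP34 hosted 37 of them. USP32 and USP26 have RefSeq entries but no symbol under the identifiers of the gene table, so they were outside the rule.

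Ubiquitin is a small protein that is joined to other proteins and marks them for breakdown, sorting or a change of activity, and deubiquitinases cut it off again. USPs are cysteine proteases, and most act on a few substrates set by their partner proteins, so members of the family sit at the proteasome, on chromatin, at endosomes and in signalling pathways. A circRNA arises when a splice donor joins an acceptor that lies upstream of it. The resulting closed loop has no ends for exonucleases, and many brain genes with long introns give rise to several such loops.

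RNA was measured in the brain of 3 wild boars and of 3 domestic pigs of the Rongchang breed, all labelled female and 2 years old. Wild boar libraries carry the tissue label brain, domestic pig libraries carry cerebrum, and the series title places both in the prefrontal cortex. The domestic pig libraries are older data that were analysed again for the series. Breed, source of the libraries and labelled tissue cannot be told apart, and p-values measure only the spread between these 6 libraries.

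Gene levels are TPM values, which scale reads by gene length and by library. The listed genes summed to between 17.2% and 31.0% of 1000000 in wild boar libraries and between 23.5% and 40.9% in domestic pig libraries. TPM was therefore also divided by a median-ratio factor per library, and the result is called rescaled TPM. The median log2 fold change (wild boar over domestic pig) over all tested genes was then 0.01, against -0.41 on deposited TPM, and over all circRNAs it was -0.10, against -0.45. For circRNAs whole back-splice reads could be recovered from the TPM values. They totalled 38047, 59343 and 33644 in wild boar 1, 2 and 3, against 71183, 48822 and 73089 in domestic pig 1, 2 and 3.

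Defining markers of neurons, astrocytes, oligodendrocytes and microglia were present in all 6 libraries, and their summed rescaled TPM overlapped between the groups. The 5 neuron markers summed to between 1088 and 1428 in wild boar, against between 1091 and 1422 in domestic pig, a sum made up mostly of SNAP25, and 1 of the 5 passed the test. That was SLC17A7, a glutamate transporter of cortical neurons, at 42.0, 51.9 and 47.5 rescaled TPM in wild boar, against 21.7, 36.96 and 23.05 in domestic pig (log2 fold change 0.80, limma adjusted p = 0.0264). Of the 4 microglia markers 1 passed, C1QA (log2 fold change 0.72, limma adjusted p = 0.0402), and of the astrocyte and oligodendrocyte markers 0 passed. The microglia markers did not move together: 3 were above 0 and 1 below, P2RY12 (log2 fold change -0.66, limma adjusted p = 0.0829). Of the 4 astrocyte markers 3 were above 0 and 1 below, AQP4 (log2 fold change -0.62, limma adjusted p = 0.0731). With 1 library left out, SLC17A7 passed only without wild boar 1 or domestic pig 2 (limma adjusted p = 0.0491 and 0.0069), and C1QA only without wild boar 1 (0.0366). The summed levels of blood and vessel markers did not overlap, while the single markers PECAM1, FLT1, COL1A1 and DCN did. The 4 red blood cell markers summed to between 448 and 1319 rescaled TPM in wild boar, against between 85.6 and 227 in domestic pig, and all 4 passed the test. The 3 endothelial markers summed to between 19.5 and 30.6 in wild boar, against between 12.9 and 13.8 in domestic pig, with 1 of 3 past the test. That was CLDN5, which made up most of the sum in wild boar, while FLT1 had a log2 fold change of 0.01. The 4 mural and fibroblast markers summed to between 25.0 and 53.8 in wild boar, against between 14.9 and 21.7 in domestic pig, with 2 of 4 past the test. Over all genes tested 19.5% passed, 8.88% as higher in wild boar and 10.7% as lower. No marker was at 0 in any library. The part of these cells in the differences between USP genes was not tested.

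Of the 46 USP genes, 40 reached 1 TPM in at least 3 libraries and were tested, and 39 did so in all 6. USP18, USP43, USP44, USP49, USP50 and USP51 stayed below that filter. Averaged over the 6 libraries, the highest deposited levels were those of USP33 (36.9 TPM), USP9X (34.9 TPM), USP14 (31.0 TPM), USP47 (28.1 TPM) and USP46 (27.8 TPM). USP33 takes part in the recycling of cell surface receptors, USP9X acts on SMAD4 and on proteins of neuronal migration, USP14 trims ubiquitin chains on the proteasome, and USP46 works with the cofactor WDR48. USP14 had 23.7, 26.8 and 35.7 rescaled TPM in wild boar, against 25.3, 34.8 and 26.0 in domestic pig, so its range was wide in both. USP46 had 25.0, 24.3 and 26.0 rescaled TPM in wild boar, against 24.4, 27.3 and 29.1 in domestic pig. The log2 fold changes of USP14 and USP46 were -0.01 (95% interval -0.41 to 0.40) and -0.10 (95% interval -0.34 to 0.15), neither of them called. USP9X had 31.0, 25.9 and 30.1 rescaled TPM in wild boar, against 33.1, 41.8 and 31.5 in domestic pig, without overlap, but its difference missed the threshold (log2 fold change -0.27, SE 0.14, limma adjusted p = 0.183). USP33 was also without overlap, at 31.4, 27.0 and 32.2 rescaled TPM in wild boar against 41.3, 36.6 and 37.7 in domestic pig, and missed it too (log2 fold change -0.34, SE 0.11, limma adjusted p = 0.0664).

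USP genes passed the test mostly in the direction of lower levels in wild boar. On rescaled TPM, 11 of the 40 tested genes were lower and 2 were higher at an adjusted p under 0.05, and 27 were not called. Over all 11752 genes tested 10.7% were lower and 8.88% higher, 19.5% in all. The median log2 fold change of the 40 was -0.11, against 0.01 for all genes, and 29 of them were below 0, where 48.5% of all genes were. Leaving out 1 library moved the median of the 40 between -0.17, without domestic pig 1, and -0.09, without wild boar 1. For 17 USP genes every wild boar library was below every domestic pig library, and for 6 every one was above, against 22.1% and 19.6% of all genes. On deposited TPM 0 USP genes passed limma, 15 had an unadjusted p under 0.05, and 1.6% of all genes passed, 1.46% as lower. There the median of the 40 was -0.58 and 37 were below 0, next to the median of -0.41 for all genes. The shares of all genes below 0 or under that unadjusted p are not given on this scale. The counts of 15 and 37 therefore do not set USP genes apart. In tissue RNA, fewer cells that express a gene and less of its RNA per cell cannot be told apart.

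**Figure D1:**
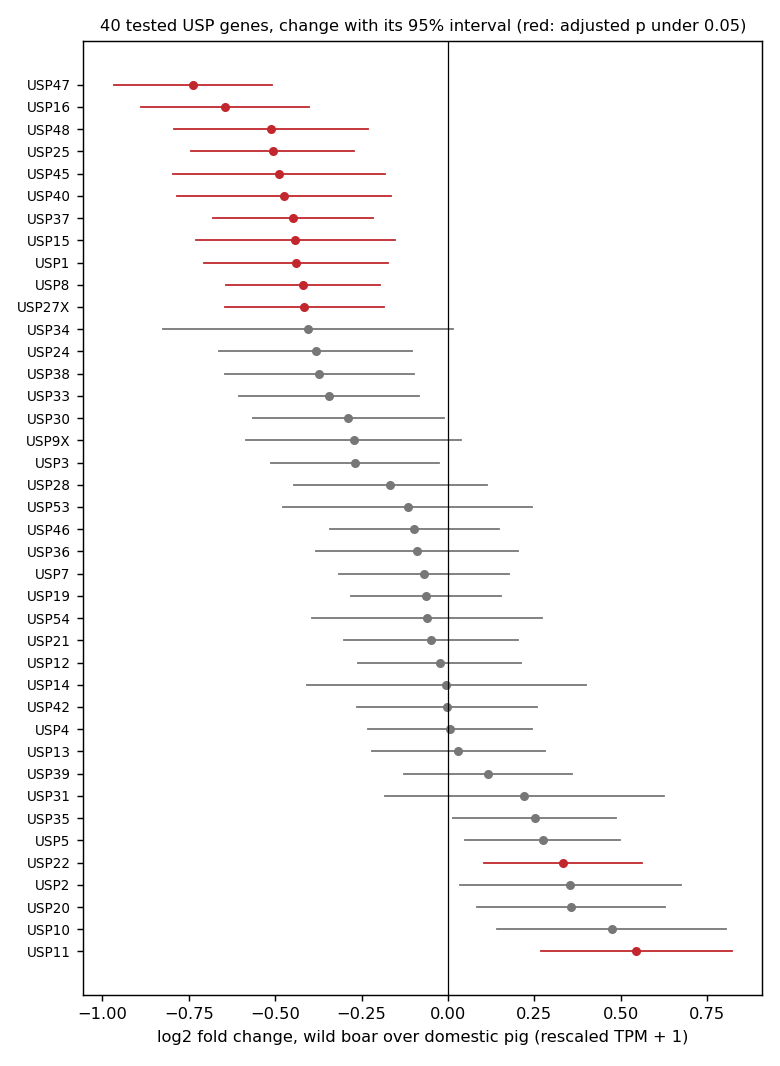
The log2 fold change of each of the 40 tested USP genes, wild boar over domestic pig, on log2(rescaled TPM + 1), with points for the estimate and lines for the 95% interval; genes with a limma adjusted p under 0.05 are red. The 11 red genes at the top run from -0.74 for USP47 to -0.42 for USP27X, and the 2 red genes near the bottom are USP22, which turned to -0.15 on deposited TPM, and USP11.

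The USPs placed under DNA damage repair and the cell cycle held 4 of the 11 lower genes. Of 7 tested members, 4 were lower, where 10.7% of all genes were, and 3 were not called, their median was -0.45, and their summed level was between 49.6 and 52.3 rescaled TPM in wild boar, against between 67.1 and 77.4 in domestic pig. Each gene was placed in a single group, so these counts depend on the placing. USP1, which acts in repair and was lower, and USP24, linked to a DNA damage protein and not called, were placed in other groups. So were both USP genes called higher, USP11 and USP22, and placing either of them here would change the counts. USP47 deubiquitinates DNA polymerase beta, an enzyme of base excision repair. It had 19.8, 19.5 and 18.1 rescaled TPM in wild boar, against 34.2, 32.1 and 31.4 in domestic pig. The groups lay well apart, with the highest wild boar library far under the lowest domestic pig library (log2 fold change -0.74, SE 0.10, limma adjusted p = 0.0057). USP37 removes ubiquitin from cyclin A at entry into S phase, and it had 6.501, 6.31 and 6.29 rescaled TPM in wild boar, against 9.37, 9.56 and 8.27 in domestic pig. USP48 had 9.38, 10.2 and 10.4 in wild boar, against 14.6, 16.97 and 12.7 in domestic pig. USP45, which acts on the repair nuclease subunit ERCC1, had 4.15, 3.32 and 3.64 in wild boar, against 5.84, 6.42 and 4.63 in domestic pig. None of the 3 overlapped between the groups, and their log2 fold changes were -0.45, -0.51 and -0.49 (limma adjusted p = 0.0213, 0.0252 and 0.038). USP10, which acts on p53, went the other way at 6.78, 8.01 and 6.44 rescaled TPM in wild boar against 4.14, 6.02 and 4.40 in domestic pig, and missed the threshold (log2 fold change 0.47, SE 0.15, limma adjusted p = 0.0524).

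Among the USPs of chromatin, 2 of the 6 tested were lower and 1 was higher, where 10.7% of all genes were lower and 8.88% higher. USP16, which takes ubiquitin off histone H2A, had 12.7, 12.02 and 13.04 rescaled TPM in wild boar, against 22.3, 18.8 and 19.7 in domestic pig. Its groups were far apart (log2 fold change -0.65, SE 0.11, limma adjusted p = 0.0081). USP22 and USP27X both act on histone H2B with the same adaptor proteins, and USP22 is the deubiquitinase of the SAGA coactivator complex. USP22 had 20.3, 21.1 and 23.3 rescaled TPM in wild boar, against 16.9, 16.6 and 17.2 in domestic pig. It was just past the threshold on rescaled TPM (log2 fold change 0.33, SE 0.10, limma adjusted p = 0.0496), while on deposited TPM its sign turned, to -0.15. USP27X, on the X chromosome, had 3.78, 3.55 and 3.83 rescaled TPM in wild boar, against 5.21, 5.66 and 5.03 in domestic pig (log2 fold change -0.42, SE 0.10, limma adjusted p = 0.0266). Sequence shared between USP22, USP27X and USP51 may have split reads among them, so the levels of these genes are uncertain. ATXN7L3, the adaptor that switches on USP22 in SAGA, had 20.7 ± 1.35 rescaled TPM in wild boar, against 15.1 ± 1.20 in domestic pig (SD over 3 libraries each; limma adjusted p = 0.0282), with a log2 fold change of 0.43 on rescaled TPM and of -0.05 on deposited TPM.

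Of the 4 USPs linked to the spliceosome, all tested, 1 was higher and 1 lower, where 8.88% of all genes were higher and 10.7% lower. USP11 and USP15 are paralogues, and USP15 also acts on the TGF-beta receptor and on a subunit of the spliceosome. USP11, on the X chromosome, had 25.1, 23.8 and 24.1 rescaled TPM in wild boar, against 14.5, 19.1 and 15.7 in domestic pig. All wild boar libraries were above all domestic pig libraries on rescaled TPM (log2 fold change 0.54, SE 0.12, limma adjusted p = 0.0201), while on deposited TPM the groups overlapped and the difference was 0.05 (limma adjusted p = 0.951). USP15 had 15.9, 12.9 and 15.7 rescaled TPM in wild boar, against 22.4, 18.0 and 21.1 in domestic pig (log2 fold change -0.44, SE 0.13, limma adjusted p = 0.0423). USP4, a further paralogue, had a log2 fold change of 0.01 (95% interval -0.23 to 0.24, limma adjusted p = 0.979). That of USP39, a component of the spliceosome itself, was 0.12 (95% interval -0.13 to 0.36, limma adjusted p = 0.465).

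In the group of endosome, ER, Golgi and mitochondria 1 of 5 tested genes was lower, where 10.7% of all genes were. USP8 acts on receptors at the endosome, where it binds the sorting proteins STAM and STAM2. It had 14.3, 15.8 and 15.3 rescaled TPM in wild boar, against 20.7, 19.8 and 21.2 in domestic pig, with narrow groups that did not overlap (log2 fold change -0.42, SE 0.10, limma adjusted p = 0.0232). USP8 overlaps USP50 in the annotation, but USP50 had at most 0.131 rescaled TPM in any library. STAM2 had 7.42 ± 0.671 rescaled TPM in wild boar, against 9.90 ± 0.811 in domestic pig (SD over 3 libraries each; limma adjusted p = 0.0494). STAM was not called, at 18.1 ± 3.62 in wild boar, against 15.1 ± 2.82 in domestic pig (log2 fold change 0.24, limma adjusted p = 0.334). HGS, which forms the endosomal sorting complex with STAM proteins, was higher, at 7.03 ± 0.244 in wild boar, against 3.65 ± 0.626 in domestic pig (SD over 3 libraries each; log2 fold change 0.80, limma adjusted p = 0.00743).

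Of the signalling USPs, 1 of 7 was lower, where 10.7% of all genes were. USP25, which acts on TRAF proteins and tankyrases, had 15.9, 14.5 and 16.5 rescaled TPM in wild boar, against 21.7, 22.3 and 23.9 in domestic pig (log2 fold change -0.51, SE 0.10, limma adjusted p = 0.0158). USP34 belongs here as well, as an enzyme that acts on axin in Wnt signalling, and is described below with its circRNAs. Among the 3 partners of WDR48 1 was lower, next to the same 10.7% of all genes. This was USP1, at 8.44, 8.63 and 9.88 rescaled TPM in wild boar, against 14.2, 11.4 and 12.1 in domestic pig (log2 fold change -0.44, SE 0.12, limma adjusted p = 0.0354). USP1 deubiquitinates PCNA and FANCD2 in repair. USP12 and USP46 were not called. USP40, for which no role is assigned here, was the lowest of the called genes, at 2.03, 2.37 and 1.67 rescaled TPM in wild boar, against 3.08, 3.78 and 2.76 in domestic pig (log2 fold change -0.48, SE 0.14, limma adjusted p = 0.0422). None of the 3 USPs of the proteasome and free ubiquitin chains was called. The same held for the 2 tested members without known catalytic activity and for USP36 of the nucleolus.

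These calls differed in how far they rested on single libraries. USP47 and USP16 passed limma whichever of the 6 libraries was left out, with adjusted p up to 0.0283 and 0.0346. USP25 passed in 5 cases and had an adjusted p of 0.0554 without wild boar 2. USP8, USP15, USP1 and USP11 passed only without domestic pig 2 (limma adjusted p = 0.024, 0.0262, 0.0296 and 0.0086), and USP45 only without domestic pig 3 (0.0304). USP37, USP48 and USP27X passed without either of those 2 libraries (limma adjusted p between 0.0272 and 0.0479) and missed the threshold without any other. USP22 and USP40 passed in none of the 6 cases, with limma adjusted p between 0.0675 and 0.155 for USP22 and between 0.0503 and 0.128 for USP40. Without domestic pig 2, 9 USP genes were lower and 4 higher, and without wild boar 2, 2 were lower and 0 higher. The calls over all 11752 genes moved as well, from 1252 lower and 1043 higher with all libraries. They were 1105 and 1094 without domestic pig 2, and 463 and 308 without wild boar 2. USP10 also passed without domestic pig 2 (limma adjusted p = 0.0177).

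**Figure D2:**
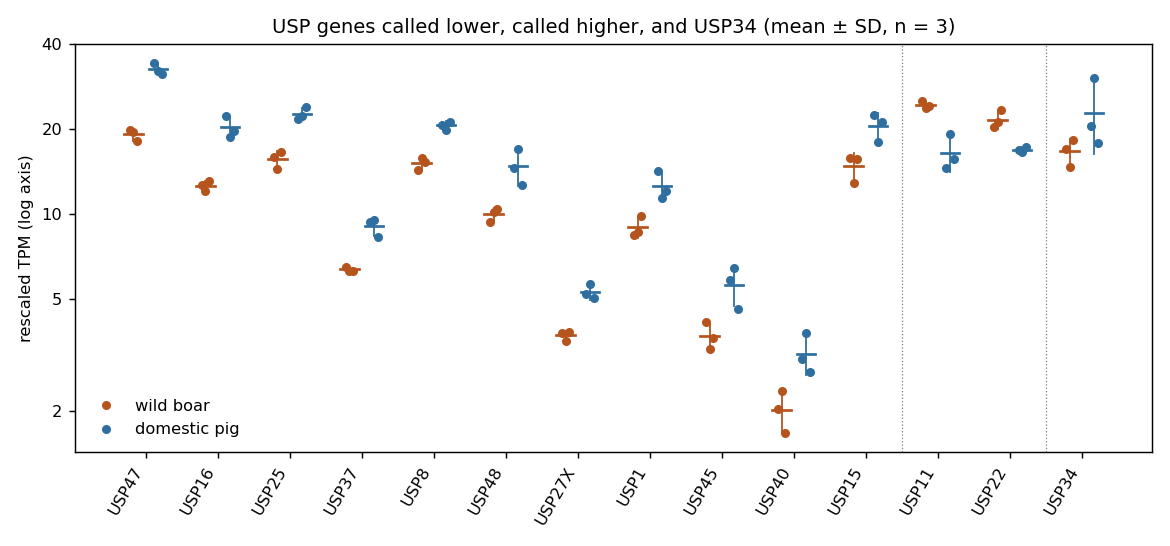
Rescaled TPM (log axis) in each wild boar and domestic pig library for the 11 USP genes called lower in wild boar, the 2 called higher (USP11, and USP22 whose sign turned to -0.15 on deposited TPM) and USP34, with the mean as a bar and SD as a line (n = 3). The groups are separate for the 13 called genes, while for USP34 domestic pig 3, at 17.9, lies within the wild boar range of 14.7 to 18.3.

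Other genes of the ubiquitin system changed in both directions. Of 32 tested deubiquitinases outside the USP family, 7 were lower and 3 higher, with a median log2 fold change of -0.08, where 10.7% of all genes were lower and 8.88% higher. MYSM1, a metalloprotease that acts on histone H2A, had 6.44 ± 0.852 rescaled TPM in wild boar, against 12.9 ± 1.18 in domestic pig (SD over 3 libraries each; log2 fold change -0.90, limma adjusted p = 0.0056). OTUD3 and OTUD6B, proteases of the OTU family, fell by 0.87 and 0.83 on the log2 scale, and JOSD2, of the Josephin family, rose by 0.58 (rescaled TPM, limma adjusted p = 0.0085, 0.0087 and 0.0133). On deposited TPM the difference of JOSD2 was 0.12, that of HGS 0.36 and that of DMWD 0.38. Of 17 USP partners, 2 were lower and 3 higher, next to the same shares of all genes. Beside HGS, ATXN7L3 and STAM2, these were DMWD, a WD-repeat partner of the USP12 and USP46 group, at 5.02 ± 0.454 in wild boar, against 2.52 ± 0.309 in domestic pig, and the p53 ligase MDM2, a substrate of USP7, at 6.83 ± 0.554 in wild boar, against 9.90 ± 0.556 in domestic pig (rescaled TPM, SD over 3 libraries each; limma adjusted p = 0.00688 and 0.0199). With wild boar 1, wild boar 3 or domestic pig 1 left out, the limma adjusted p of MDM2 was 0.062, 0.0706 and 0.0526. ATXN7L3 passed only without domestic pig 2 or 3 (limma adjusted p = 0.0468 and 0.0394), and STAM2 missed the threshold whichever library was left out (0.0703 to 0.146). Of 5 ubiquitin and E1 enzyme genes 1 was lower, where 10.7% of all genes were. It was the activating enzyme UBA6 (log2 fold change -0.49, limma adjusted p = 0.0323), which passed only without domestic pig 3 once a library was left out (0.0359). The polyubiquitin gene UBB had a log2 difference of 0.50 on rescaled TPM and missed the threshold (limma adjusted p = 0.232), with -0.01 on deposited TPM.

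The 128 circRNAs of USP genes lay in 23 of the 42 autosomal USP genes and in none of the 4 on the X chromosome, where the circRNA table lists no circRNA at all. There were 8 hosts with 1 circRNA and 12 with at least 3. USP34 had 37, USP40 had 14, USP24 and USP25 had 12 each, USP47 had 9 and USP8 had 6. Together they held 2325 back-splice reads over the 6 libraries, with a median of 12 per circRNA. In share of all back-splice reads this was 0.670%, 0.645% and 0.612% in wild boar, against 0.735%, 0.809% and 0.770% in domestic pig. Of the 128, 42 were seen in all 6 libraries and 9 in a single library.

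How many circRNAs a USP gene gave did not follow its level closely. Across the 37 tested autosomal genes, Spearman's rho between the deposited gene level and the number of circRNAs was 0.28, and between the length of the gene in the genome and that number it was 0.71. Across the 23 hosts, rho between gene TPM and summed circRNA TPM was 0.11. These are descriptions over genes that share the same 6 libraries. USP33, the gene of the highest level, gave 3 circRNAs, USP14 at 31.0 TPM gave 0, and USP40 at 2.84 TPM gave 14. The summed circRNA TPM of USP40 was 39.1% of its gene TPM on average over the 6 libraries, that of USP24 23.04%, that of USP34 11.6% and that of USP46 0.249%. The circRNA TPM counts reads at 1 junction over the whole length of the loop, and whether both tables share a scale is not stated, so these percentages rank hosts and are not proportions of molecules.

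**Figure D3:**
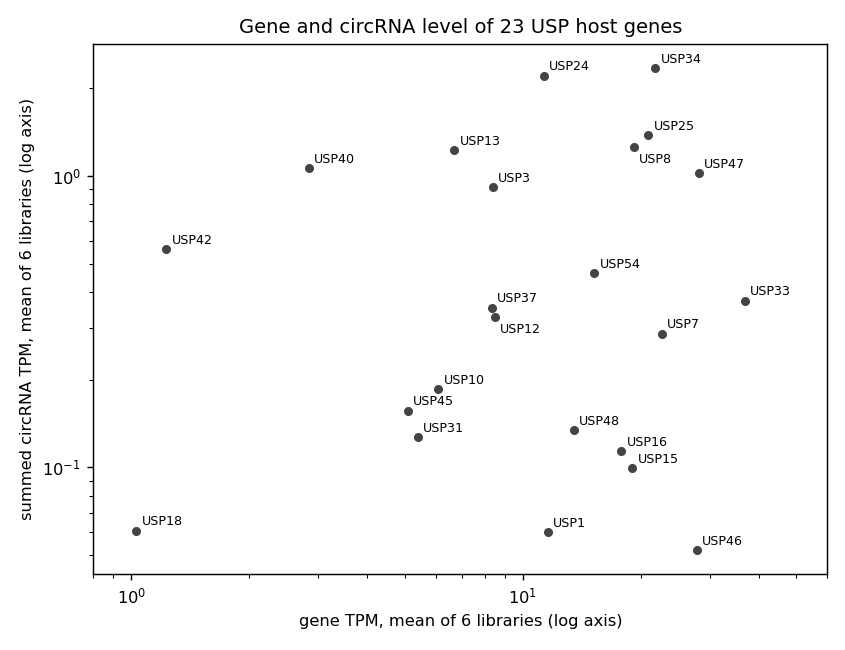
Mean deposited gene TPM over the 6 libraries (x, log axis) against mean summed circRNA TPM (y, log axis) for the 23 USP host genes, with 1 point per gene. The points form no line (Spearman's rho 0.11), with USP34 and USP24 at the top and USP46 at the bottom right.

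By mean deposited TPM, the most abundant USP circRNA was ssc_circ_558 of USP24, a very large protease linked to the DNA damage protein DDB2. It spans 157293187 to 157294263 on chromosome 6, with a recovered length of 244 nt, and had 9, 21 and 11 reads in wild boar, against 17, 1 and 9 in domestic pig. Domestic pig 2 held 1 read and the other libraries 9 or more. The next was ssc_circ_1218 of USP8 (chromosome 1, 121330342 to 121335034), with 18, 28 and 14 reads in wild boar, against 42, 44 and 45 in domestic pig. It held 191 reads over the 6 libraries, against 68 for ssc_circ_558. TPM divides reads by the length of the loop, 806 nt for ssc_circ_1218, so this order is not that of reads. On rescaled TPM the groups of ssc_circ_1218 did not overlap, with a log2 fold change of -0.61 (SE 0.36) and a limma adjusted p of 0.667. The others among the 10 most abundant were ssc_circ_4049 of USP13, ssc_circ_4302 of USP25, ssc_circ_1132 of USP3, ssc_circ_2427 of USP47, ssc_circ_562 of USP24, ssc_circ_5646 of USP54, ssc_circ_10075 of USP42 and ssc_circ_7415 of USP34. Their limma adjusted p-values lay between 0.723 and 0.9749, and the rescaled groups of ssc_circ_4302 and ssc_circ_7415 did not overlap, with every wild boar library lower.

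No single USP circRNA passed. Of the 108 tested, 0 had a limma adjusted p under 0.05 and 9 had an unadjusted p under 0.05. Of all 9709 circRNAs tested 0.0206% passed, 0.0103% in each direction, and 881 had such an unadjusted p. The 108 had a median log2 fold change of -0.21, against -0.10 for all circRNAs, and 72 were below 0, where 56.3% of all circRNAs were. The 5 of lowest p all missed the threshold (limma adjusted p between 0.323 and 0.439). Of these, ssc_circ_4306 of USP25 had 1, 4 and 3 reads in wild boar, against 1, 0 and 0 in domestic pig. Another circRNA of USP25, ssc_circ_4303, had 0 reads in all wild boar libraries and 2, 1 and 3 in domestic pig, and ssc_circ_7435 of USP34 likewise had 0 in all wild boar libraries and 1, 2 and 3 in domestic pig. With so few reads no fold is given. The remaining ones were ssc_circ_558 and ssc_circ_7420 of USP34, the last with 0, 2 and 0 reads in wild boar, against 4, 4 and 5 in domestic pig.

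Summed over each host, circRNA levels gave no call on rescaled TPM either. Of 23 hosts 0 passed limma and 3 had an unadjusted p under 0.05. Over all 3195 hosts 0.0313% passed and 357 had such an unadjusted p. The median over the 23 was -0.16, against -0.05 for all hosts, and 15 were below 0, where 52.7% of all hosts were. Leaving out 1 library moved the median over the 23 between -0.24, without wild boar 2, and -0.08, without domestic pig 3. USP8 and USP34 were lower in every wild boar library than in any domestic pig library, and USP24 and USP16 were higher in every one, against 8.61% and 8.11% of all hosts. On deposited TPM and in share of back-splice reads the groups of USP24 and USP16 overlapped, while those of USP8 and USP34 stayed apart. The circRNAs of USP24 summed to 2.28, 2.18 and 3.71 rescaled TPM in wild boar, against 2.01, 1.39 and 1.57 in domestic pig, with wild boar 3 far above the others (log2 fold change 0.68, SE 0.28, limma adjusted p = 0.375). Without wild boar 3 it was 0.43. Those of USP8 summed to 0.998, 0.815 and 0.769 rescaled TPM in wild boar, against 1.42, 1.66 and 1.20 in domestic pig (log2 fold change -0.70, SE 0.30, limma adjusted p = 0.384). The circRNAs of USP16 held 7, 8 and 4 reads in wild boar, against 10, 2 and 7 in domestic pig, too few for a firm order. For the hosts USP25, USP40, USP47, USP3, USP13, USP12, USP37 and USP33 the groups overlapped, with log2 fold changes between -0.61 for USP33 and 0.54 for USP12.

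**Figure D4:**
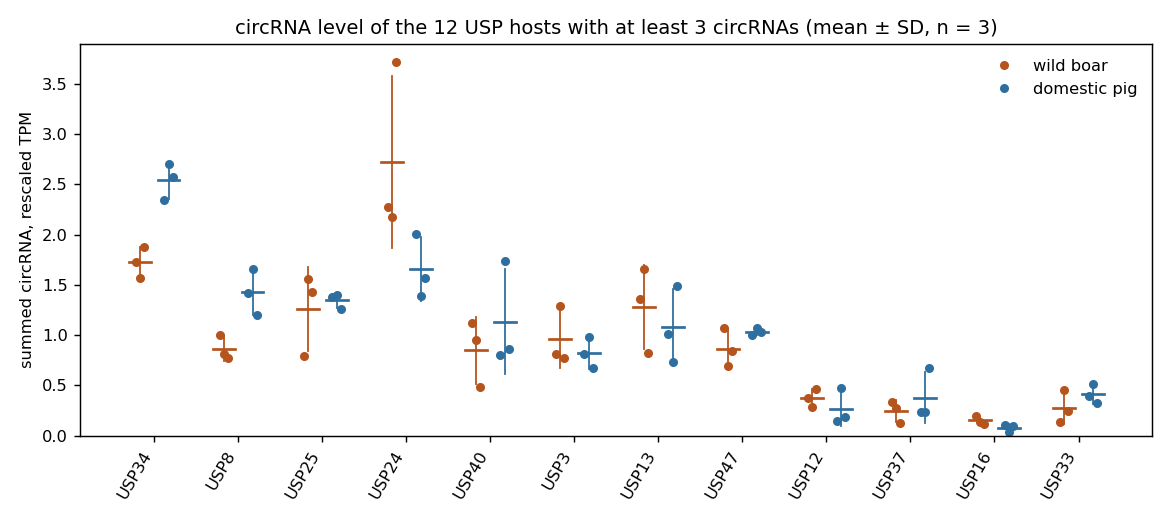
Summed circRNA level in rescaled TPM of the 12 USP hosts with at least 3 circRNAs, in each wild boar and domestic pig library, with the mean as a bar and SD as a line (n = 3). USP34 and USP8 are lower and USP24 and USP16 higher in wild boar without overlap, and none of the 12 passed limma on this scale. On deposited TPM the groups of USP24 and USP16 overlapped.

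On deposited TPM, 10 hosts were lower without overlap, where 24.9% of all hosts were, and 2 passed limma as lower, where 4.6% of all hosts did and 4.73% passed in either direction. These were USP34 and USP8. USP8 had 0.834, 0.621 and 0.708 TPM of circRNA in wild boar, against 1.66, 2.01 and 1.74 in domestic pig (log2 fold change -1.28, SE 0.32, limma adjusted p = 0.0272). The median over all hosts on this scale was -0.52.

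USP34 lies on chromosome 3 of Sscrofa11.1, from 80330896 to 80589514, and was the longest of the USP hosts at 259 kb. As a gene it had 17.1, 14.7 and 18.3 rescaled TPM in wild boar, against 20.5, 30.3 and 17.9 in domestic pig. Domestic pig 2 was far above the rest, and domestic pig 3 lay within the wild boar range. The difference missed the threshold (log2 fold change -0.40, SE 0.18, 95% interval -0.83 to 0.02, limma adjusted p = 0.148), and leaving out single libraries moved it between -0.56 and -0.19, the smallest being without domestic pig 2. On deposited TPM USP34 had 15.0, 8.47 and 21.3 in wild boar, against 17.9, 43.5 and 24.5 in domestic pig. Reads of AHSA2, which overlaps USP34 in the annotation, may be part of these values, since the strand setting of the counting is not given.

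The 37 circRNAs of USP34 made it the third host by number among 3486 in the table, where the median host had 2. They held 51, 68 and 39 back-splice reads in wild boar, against 113, 91 and 132 in domestic pig, 494 in all or 21.2% of the reads of USP circRNAs. Of the 37, 19, 23 and 19 were seen in wild boar 1, 2 and 3, against 32, 27 and 30 in domestic pig 1, 2 and 3, a count that depends on depth. As a share of all back-splice reads, USP34 took 0.134% (95% Wilson interval 0.102% to 0.176%), 0.115% (0.0904% to 0.145%) and 0.116% (0.0848% to 0.158%) in wild boar. In domestic pig the shares were 0.159% (0.132% to 0.191%), 0.186% (0.152% to 0.229%) and 0.181% (0.152% to 0.214%). The groups did not overlap, but the counting intervals of wild boar 1 and wild boar 3 reached into those of all domestic pig libraries, and that of wild boar 2 into that of domestic pig 1. These intervals cover counting error only.

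In summed TPM, USP34 circRNAs had 1.73, 1.57 and 1.88 in wild boar, against 2.34, 2.70 and 2.58 in domestic pig after rescaling. Every wild boar library was below every domestic pig library, and the log2 fold change of -0.55 (SE 0.24, 95% interval -1.06 to -0.04) missed the threshold (limma adjusted p = 0.406). As deposited, the sums were 1.44, 1.20 and 1.73 TPM in wild boar, against 2.75, 3.27 and 3.71 TPM in domestic pig, and the log2 fold change of -1.14 (SE 0.27) passed (limma adjusted p = 0.0248). Whether USP34 circRNA counts as lower in wild boar therefore depended on the scale, and the groups stood apart on both.

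Set against the gene in the same library, USP34 circRNA TPM was 9.58%, 14.1% and 8.11% of gene TPM in wild boar, against 15.3%, 7.51% and 15.1% in domestic pig. The lowest and the highest of these 6 values were both domestic pig libraries. The circRNA to gene ratio differed by a log2 value of -0.14 (SE 0.32, 95% interval -0.86 to 0.57, limma adjusted p = 0.899). Over the 22 hosts with a tested ratio 0 passed limma and 2 had an unadjusted p under 0.05, against 0.0358% passing and 280 at that unadjusted p among 2794 hosts. Those 2 were USP24 and USP16. The USP24 circRNAs were 24.3%, 34.3% and 31.7% of gene TPM in wild boar, against 23.8%, 8.37% and 15.7% in domestic pig, without overlap (log2 difference 1.06, SE 0.32, limma adjusted p = 0.329). For USP16 the percentages were 1.43, 1.54 and 0.727 in wild boar, against 0.652, 0.144 and 0.508 in domestic pig (log2 difference 1.35, SE 0.51, limma adjusted p = 0.426). The circRNA reads of USP16 were 19 in each group. The median ratio difference was 0.22 over the 22 hosts and 0.13 over all. This order did not hold: without domestic pig 1 the medians were 0.02 over the 22 and 0.16 over all, without wild boar 2 they were 0.08 and 0.09, and on deposited TPM 0.02 and 0.10.

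Within USP34 the circRNAs lay between 40.3 and 240.5 kb from the lower bound of the gene. They spanned 0.464 to 94.9 kb of genome, with recovered lengths between 282 and 3999 nt and a median of 987 nt, against 707 nt for all USP circRNAs. They used 21 starts and 24 ends, and 32 of the 37 shared a start or an end with another. The most used start, the acceptor at position 80371236, began 5 circRNAs with 36 reads in wild boar, against 92 in domestic pig, 25.9% of all USP34 reads. The acceptor at 80503612 began 2 circRNAs with 16 reads in wild boar, against 43 in domestic pig, and the donor at 80483180 ended 5 circRNAs with 20 reads in wild boar, against 27 in domestic pig. The start at 80418060 began 3 circRNAs that held 20 reads in wild boar, against 12 in domestic pig. In all, 4 of the 21 starts and 3 of the 24 ends had more reads in wild boar. The wild boar libraries held 131034 back-splice reads together, against 193094 in the domestic pig libraries. As a share of these totals, 7 starts and 6 ends, the donor at 80483180 among them, were higher in wild boar.

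**Figure D5:**
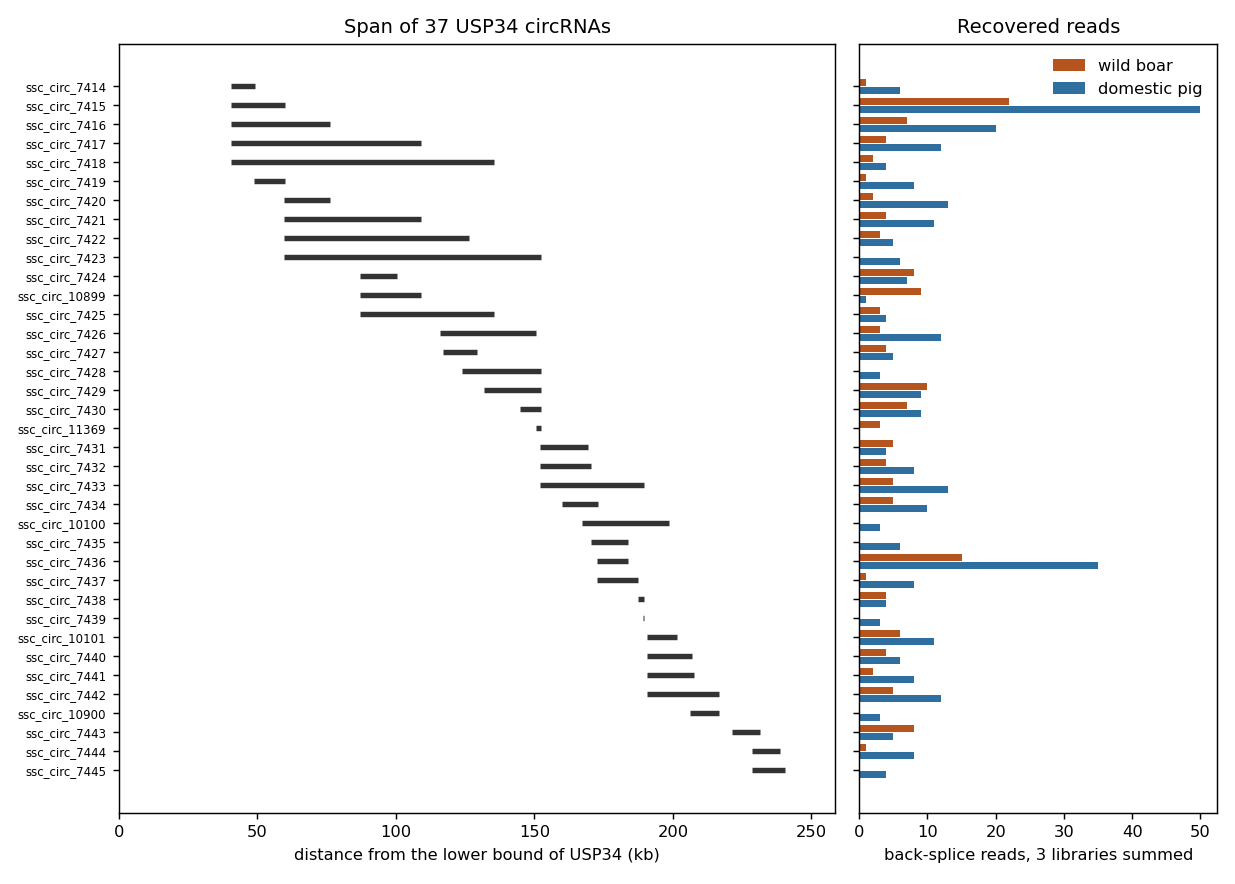
Left, the span of each of the 37 USP34 circRNAs, in kb from the lower bound of the gene, with 1 bar per circRNA; right, its recovered back-splice reads summed over the 3 wild boar and the 3 domestic pig libraries. The 5 bars that start together at 40.3 kb share an acceptor, and ssc_circ_7415 and ssc_circ_7436 hold the most reads in both groups.

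The most abundant USP34 circRNA, ssc_circ_7415 (chromosome 3, 80371236 to 80390801, 710 nt), had 9, 10 and 3 reads in wild boar, against 21, 12 and 17 in domestic pig. The next, ssc_circ_7436 (80503612 to 80514662, 522 nt), had 7, 6 and 2 reads in wild boar, against 9, 13 and 13 in domestic pig. On rescaled TPM their log2 fold changes were -0.67 (SE 0.47) and -0.72 (SE 0.51), both well short of the threshold (limma adjusted p = 0.723 and 0.72), with groups that overlapped for ssc_circ_7436 and not for ssc_circ_7415. The circRNA ssc_circ_7416 shares the acceptor of ssc_circ_7415 and runs on to 80407271, with 3, 3 and 1 reads in wild boar, against 8, 4 and 8 in domestic pig. The others among the 8 most abundant were ssc_circ_10101, ssc_circ_7420, ssc_circ_7438, ssc_circ_7430 and ssc_circ_7427, each with at most 6 reads in any library. Among them ssc_circ_7438 had 0, 0 and 4 reads in wild boar, against 2, 1 and 1 in domestic pig. Of the 31 USP34 circRNAs tested, 24 were below 0 and 7 above, with a median of -0.25, and 10 were seen in all 6 libraries. Over all circRNAs tested 56.3% were below 0, with a median of -0.10.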

How the data were processed

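Libraries were stranded and made from RNA without its ribosomal part, per the labels' protocols. The values the authors deposited are TPM, in a table of protein-coding genes and a table of circRNAs, and 0 columns of these tables were left unused. The submitters' processing notes name BWA 0.7.17 and STAR 2.6.0c, with no roles. Build, annotation, caller and strand setting of the counting are not given in the sources used here. Of the circRNAs, 99.3% lay inside a Sscrofa11.1 RefSeq gene, against 47.2% after a shift of 1000000 bases. Positions count from 1.

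Gene TPM keeps no depth. Each circRNA TPM was a whole number of reads over a length in bases times a factor per library. This held for all 11375 circRNAs within a relative tolerance of 1e-05 for reads and 0.01 bases for lengths, with the scale set by 276 circRNAs whose length equals their span. The smallest solution with at least 3 reads in 1 library was taken, which for 760 circRNAs (12 of them in USP genes) meant raising the reads, and for the others the reads are a lower bound.

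Genes with at least 1 TPM in at least 3 libraries were fitted on log2(rescaled TPM + 1), and circRNAs, host sums and ratios above 0 in at least 3 libraries with a pseudocount of 0.045, about 1 read at the median length. These scales understate changes of low values. The factors of rescaling came from genes, or circRNAs, present in all 6 libraries. Each fit used limma 3.58.1 (R 4.3.3) with its trend of variance on mean, two-sided, adjusted by Benjamini-Hochberg over all features tested, with a threshold of 0.05, and was tested on simulated data. Named were USP34 with its 8 most abundant circRNAs, up to 12 called USP genes per direction, the 5 USP genes of highest level, hosts of at least 3 circRNAs, the 10 most abundant USP circRNAs, the 5 of lowest p, and 4 members per further list. USP10, STAM2, USP4, USP39, USP50, SLC17A7, C1QA, P2RY12, AQP4 and SNAP25 were added after their values were seen. Members and lists were chosen with earlier results of these data known. Alternatives were other scalings, pseudocounts, filters, a fit without trend, a replicate block, leaving out each library and, added after seeing the data, recovered reads scaled to the back-splice total. Genes overlapping another gene (13 of the USP genes) may share its reads. Some items are not reported here.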

Additional observations from a re-analysis of the deposited data

How the results depend on the processing

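Rescaling decided most calls. On deposited TPM 0 USP genes were called lower and 0 higher, against 11 and 2 on rescaled TPM, USP22 turned to -0.15, and 2 hosts, USP34 and USP8, were called lower in summed circRNA, with -1.14 for USP34. Dividing by the table sum gave 3 lower and 0 higher genes, and quantile normalization 13 lower and 3 higher. Over all 11752 genes the main fit gave 1252 lower and 1043 higher, and deposited TPM 172 and 16. Dividing by the table sum gave 643 and 503 over all genes, and quantile normalization 1358 and 1014. Dropping the filter on low values gave 7 lower and 1 higher, in a test over 19429 genes, of which 1217 were lower and 585 higher. A pseudocount of 0.1 for genes and the fit without trend each gave 1 higher gene. Over all genes they gave 1238 and 1224 lower, with 1019 higher in each. Leaving out 1 library gave 2 to 9 lower and 0 to 4 higher genes, next to 463 to 1105 lower and 308 to 1094 higher over all genes. The cause of these changes was not tested. The replicate numbers pair no animals in the labels, and same-numbered libraries did not deviate together as a rule (correlations of 0.11, -0.07 and -0.16 over genes, with not every library closest to its own number); a fit with the replicate number as a block gave 5 lower and 1 higher USP genes. Over all genes the fit with this block gave 697 lower and 553 higher. Under the alternatives run, 0 USP circRNAs, 0 ratios and, on scales other than the deposited one, 0 host sums passed. With a median of 12 reads per USP circRNA over 6 libraries, depth limits what single circRNAs can show.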

Other observations

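USP32 was outside the rule, since its identifier carries no symbol. The circRNA table holds 2 circRNAs inside its RefSeq bounds, with 2, 12 and 4 back-splice reads in wild boar 1, 2 and 3, against 9, 1 and 5 in domestic pig 1, 2 and 3. Their summed deposited TPM was 0.127, 0.417 and 0.311 in wild boar, against 0.444, 0.0736 and 0.29999 in domestic pig, so the groups overlapped.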
